A study of Mus musculus with 30 samples.

Results

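The genes described here are 10 genes taken as markers of tissue-resident macrophages: Csf1r, Adgre1, Cx3cr1, Cd163, C1qa, C1qb, C1qc, Aif1, Lgmn and Mpeg1. Which cells made their RNA was not tested. The 10 genes were chosen by symbol, with earlier results of these data known. They are 10 of the 24746 gene symbols counted in each of 30 libraries, and all 10 passed the filter on low counts in every comparison. The libraries are 3′ tag libraries, which read each transcript near its poly(A) tail, made from RNA of unsorted gut tissue of the inbred strain C3H/HeOuJ, for which the labels name no transgene. Untreated terminal ileum was taken from animals aged 6 or 10 weeks in 3 states: germ free (GF), reared with specific-pathogen-free flora (SPF), or germ free until 5 weeks and then given SPF flora (COL). Distal colon was sampled at 10 weeks from SPF and COL mice that were untreated or had received 1.5% dextran sulfate sodium (DSS), which injures the colonic epithelium, for 4 days and then water for 2 days. Each of the 10 groups held 3 libraries, and no GF colon was among them.

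Resident macrophages of the gut wall are maintained largely by monocytes that enter from the blood and mature in the tissue, and they clear dying cells and take up bacteria. Csf1r is the receptor for the growth factors CSF1 and IL-34 on which these cells depend, and Cx3cr1 is the receptor for fractalkine, the product of Cx3cl1. C1qa, C1qb and C1qc encode the chains of complement C1q, which macrophages make in the tissue and which opens the classical complement pathway.

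The colon libraries held 3830539 to 6791455 reads in genes and the ileum libraries 2233837 to 9088573, and the lowest number was in SPF ileum at 10 weeks, replicate 3. The ileal genes Fabp6, Apoa1 and Defa24 and the colonic genes Car1 and Aqp8 separated the tissues as labelled (Fabp6 was 6.97 to 262 CPM in colon and 11162 to 34734 CPM in ileum). Levels are CPM, read counts divided by library size after TMM scaling over all 30 libraries, and they are compared within a gene only. The values of a group's 3 libraries are given in the order of their replicate numbers, and a group summary is a mean ± SD with n = 3. Fold changes are log2 values ± standard error, and each adjusted p-value comes from the quasi-likelihood test of edgeR, adjusted by the Benjamini-Hochberg method over all genes of the fit. A gene is called where it is below 0.05. Nothing in the labels ties each library to its own mouse, so these p-values measure only the spread between the libraries, which may be technical. In RNA of whole tissue, fewer macrophages, less RNA per macrophage and less RNA of these genes from other cells cannot be told apart.

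The 3 C1q genes lie next to each other on chromosome 4 (GRCm38/mm10, GENCODE vM21), within 18.7 kb from 136880129 to 136898803 and all on the minus strand. Of the others, all but Csf1r are on chromosomes 17 (Adgre1, 57358691 to 57483527, and Aif1, 35170991 to 35176068), 9 (Cx3cr1, 119901616 to 120069879), 6 (Cd163, 124304656 to 124330527), 12 (Lgmn, 102394084 to 102439813) and 19 (Mpeg1, 12460779 to 12465283), and all 10 are annotated as protein coding.

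RefSeq promoter windows of build GRCm38.p6, each of 300 bases around an annotated start, were found for 7 of the 10. They are shown for C1qb and C1qc, which were called higher than in GF in both colonized groups of ileum at 10 weeks. Windows are also shown for Aif1 and Mpeg1, which rose with them in COL ileum at that age. The last window is at the second annotated start of Lgmn, which was called against GF at 6 weeks and not at 10. Each is written 5′ to 3′ along the gene's own strand, with matches to the searched motifs in capitals.
C1qb, chr4:136886151-136886450, minus strand: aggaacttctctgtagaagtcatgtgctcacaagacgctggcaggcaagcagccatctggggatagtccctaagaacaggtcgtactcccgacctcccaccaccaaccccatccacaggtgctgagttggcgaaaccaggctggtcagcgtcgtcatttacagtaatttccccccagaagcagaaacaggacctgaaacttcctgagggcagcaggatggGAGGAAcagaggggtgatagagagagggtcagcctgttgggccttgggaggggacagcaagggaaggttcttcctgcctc
C1qc, chr4:136892865-136893164, minus strand: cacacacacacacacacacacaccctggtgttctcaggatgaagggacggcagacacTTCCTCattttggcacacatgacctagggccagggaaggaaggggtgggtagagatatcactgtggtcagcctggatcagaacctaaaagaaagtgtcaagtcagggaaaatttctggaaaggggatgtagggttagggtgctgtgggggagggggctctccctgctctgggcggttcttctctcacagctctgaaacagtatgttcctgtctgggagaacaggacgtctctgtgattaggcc
Aif1, chr17:35176003-35176302, minus strand: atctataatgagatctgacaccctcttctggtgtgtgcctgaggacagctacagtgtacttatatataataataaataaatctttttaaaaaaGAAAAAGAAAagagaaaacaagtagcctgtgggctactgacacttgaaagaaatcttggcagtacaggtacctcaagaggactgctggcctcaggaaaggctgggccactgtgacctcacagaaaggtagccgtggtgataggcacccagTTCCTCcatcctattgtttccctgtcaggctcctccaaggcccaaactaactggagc
Mpeg1, chr19:12460520-12460819, plus strand: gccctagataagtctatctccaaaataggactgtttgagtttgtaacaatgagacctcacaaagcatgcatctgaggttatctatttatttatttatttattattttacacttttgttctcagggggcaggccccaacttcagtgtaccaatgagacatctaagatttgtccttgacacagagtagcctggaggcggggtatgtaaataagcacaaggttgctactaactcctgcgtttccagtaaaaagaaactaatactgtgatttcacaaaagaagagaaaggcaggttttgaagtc
Lgmn, chr12:102439043-102439342, minus strand: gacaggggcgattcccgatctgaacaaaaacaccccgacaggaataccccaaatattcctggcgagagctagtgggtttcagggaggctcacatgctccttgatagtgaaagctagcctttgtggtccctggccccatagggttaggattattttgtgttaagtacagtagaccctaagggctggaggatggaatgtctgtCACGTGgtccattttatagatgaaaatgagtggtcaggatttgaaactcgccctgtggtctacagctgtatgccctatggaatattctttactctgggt
The motifs were searched on both strands as exact letters. GAGGAA, the core bound by the myeloid factor PU.1, is at -30 to -25 of C1qb and, on the other strand, at -193 to -188 of C1qc and -7 to -2 of Aif1. It is in 28.3% of all 32851 windows of this length. The repeat bound by interferon regulatory factors, GAAA and again GAAA after 2 free bases, is at -157 to -148 of Aif1 and in 3.44% of all windows. CACGTG, the E-box read by MITF and TFE factors of lysosomal genes, is at -49 to -44 of the second Lgmn start and in 7.15% of all windows. The windows of Mpeg1, Cx3cr1, Cd163 and the other Lgmn start hold none of these letters.

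Across the 10 groups, mean levels were lowest in GF ileum at 10 weeks for 8 of the 10 genes. The exceptions were Csf1r, lowest in COL ileum at 6 weeks at 10.3 ± 3.28 CPM, and Lgmn, lowest in untreated SPF colon at 58.5 ± 11.7 CPM. The highest mean was in an ileum group for 4 genes and in a colon group for 6. The groups of each gene were sorted by their means, so neighbours lie close by construction, and no share over all genes was computed. Of the 90 pairs of neighbouring groups, 88 overlapped. The exceptions were Adgre1, with all libraries of GF ileum at 6 weeks above all at 10 weeks, and Cx3cr1, with all libraries of GF ileum at 6 weeks above all of DSS-treated SPF colon. Cx3cr1 and C1qa had the tightest groups, with a median coefficient of variation of 20.9% and 20.6%, and Cd163 the loosest at 55%. Cd163 had 2 to 43 reads per library and Adgre1 1 to 40, against 106 to 2170 for Lgmn, so counting error weighs most on the first 2.

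**Figure D1:**
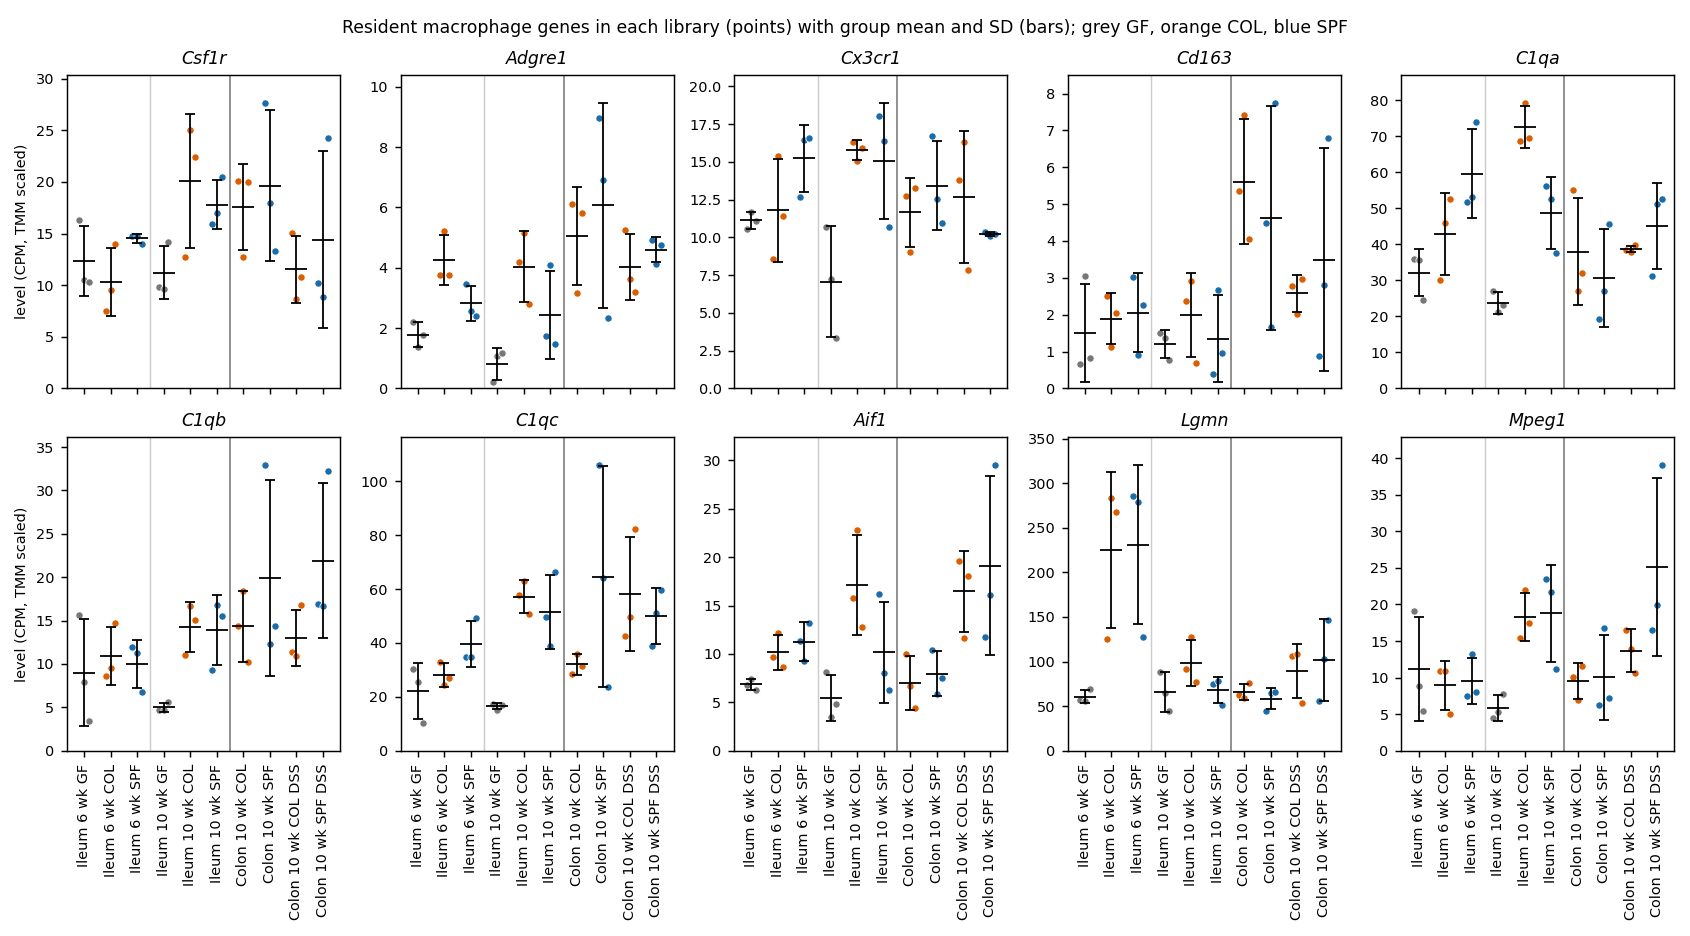
Level of each of the 10 genes in each library (CPM, TMM scaled, linear axis from 0), with 1 panel per gene and the 10 groups along the horizontal axis. Points are libraries, bars are group means ± SD (n = 3), and the GF ileum at 10 weeks is the lowest group for 8 genes, while Lgmn stands high in COL and SPF ileum at 6 weeks.

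Ileum at 10 weeks was compared between mice with and without microbiota, with the GF libraries as the reference. Colonization was lifelong in SPF mice and began at 5 weeks of age in COL mice. C1qa, C1qb, C1qc, Cx3cr1 and Mpeg1 were higher than in GF ileum in both colonized groups, by 2.1-fold (C1qa in SPF) to 3.47-fold (C1qc in COL). Adgre1 and Aif1 were called in COL, where they were 4.78-fold and 3.19-fold higher, and not in SPF. The direct difference between COL and SPF was called for neither (adjusted p = 0.82 and 0.64). Csf1r, Cd163 and Lgmn passed in neither. Both comparisons use the same 3 GF libraries.

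C1qa, the first chain of C1q, was at 27.1, 21.2 and 23.1 CPM in GF, 56.3, 52.5 and 37.5 CPM in SPF and 68.8, 79.2 and 69.5 CPM in COL ileum. Every SPF and COL library was above every GF library. The difference from GF was 1.07 ± 0.22 in SPF (adjusted p = 0.00314) and 1.62 ± 0.22 in COL (adjusted p = 1.81e-05). C1qc was at 17.5, 15.3 and 17.1 CPM in GF, 49.7, 38.7 and 66.2 CPM in SPF and 57.9, 62.9 and 50.8 CPM in COL ileum. The GF libraries lay close together, and the lowest colonized library was above all of them. C1qc differed from GF by 1.64 ± 0.28 in SPF (adjusted p = 5.53e-04) and 1.79 ± 0.28 in COL (adjusted p = 1.16e-04). C1qb, with fewer reads, was at 4.69, 4.68 and 5.64 CPM in GF, 9.29, 16.8 and 15.6 CPM in SPF and 11.1, 16.6 and 15.1 CPM in COL ileum. Its groups did not overlap either, with differences of 1.47 ± 0.41 (adjusted p = 0.0299) and 1.52 ± 0.40 (adjusted p = 0.0155).

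Mpeg1 encodes perforin-2, a pore-forming protein that acts on engulfed bacteria. It was at 4.48, 5.29 and 7.77 CPM in GF, 23.4, 21.7 and 11.2 CPM in SPF and 15.4, 21.9 and 17.5 CPM in COL ileum, with no overlap. The differences were 1.73 ± 0.41 (adjusted p = 0.00994) and 1.65 ± 0.40 (adjusted p = 0.00915). Cx3cr1 was at 10.7, 7.25 and 3.3 CPM in GF, 18, 16.4 and 10.7 CPM in SPF and 16.3, 15.1 and 15.9 CPM in COL ileum. GF replicate 1 nearly reached SPF replicate 3, and the COL libraries lay together above both. Cx3cr1 rose by 1.14 ± 0.32 in SPF (adjusted p = 0.032) and 1.17 ± 0.32 in COL (adjusted p = 0.0189).

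Adgre1 encodes F4/80, a surface antigen used to identify mouse macrophages. It had 1, 7 and 6 reads in the GF libraries (0.213, 1.06 and 1.17 CPM), against 1.75, 4.1 and 1.46 CPM in SPF and 4.18, 5.14 and 2.8 CPM in COL ileum. All colonized libraries were above all GF libraries, and the difference was called in COL (2.26 ± 0.59, adjusted p = 0.0145) and not in SPF (1.58 ± 0.62, adjusted p = 0.14). Aif1 encodes the actin-binding protein IBA1 and was at 8.11, 3.48 and 4.86 CPM in GF, 16.1, 7.99 and 6.33 CPM in SPF and 15.8, 22.8 and 12.8 CPM in COL ileum. SPF overlapped GF and COL did not, with differences of 0.99 ± 0.36 (adjusted p = 0.11) and 1.67 ± 0.36 (adjusted p = 0.00281). Csf1r, which lies on chromosome 18 from 61100598 to 61132149, was at 9.82, 9.67 and 14.2 CPM in GF, 15.9, 17 and 20.4 CPM in SPF and 12.7, 25 and 22.4 CPM in COL ileum. Its differences of 0.67 ± 0.29 (adjusted p = 0.21) and 0.85 ± 0.29 (adjusted p = 0.065) did not pass. Cd163, the scavenger receptor for haemoglobin bound to haptoglobin, differed by 0.16 ± 0.82 and 0.72 ± 0.76, with adjusted p of 0.95 and 0.67. Its libraries overlapped, at 1.49, 1.36 and 0.777 CPM in GF, 0.404, 2.66 and 0.974 CPM in SPF and 2.36, 2.91 and 0.7 CPM in COL ileum. Lgmn also overlapped, at 88.6, 64.2 and 44.7 CPM in GF, 74.6, 78.5 and 51.6 CPM in SPF and 91.1, 127 and 76.8 CPM in COL ileum. Its differences were 0.09 ± 0.35 (adjusted p = 0.93) and 0.59 ± 0.35 (adjusted p = 0.36).

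In all, 5 of the 10 genes were called higher and 0 lower in SPF than in GF ileum at 10 weeks, where 4.22% of the 13233 genes tested were called higher and 1.98% lower. In COL against GF, 7 were called higher and 0 lower, where 5.1% of all genes were called higher and 4.04% lower. The median difference of the 10 genes was 1.11 in SPF and 1.57 in COL, against 0.02 and 0.01 over all genes. Groups stood apart, with the colonized libraries higher, for 7 of the 10 genes in each comparison, against 10.1% and 15.2% of all genes. The genes were chosen with earlier results of these data known, so these shares are a description and no test of the set.

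C1qa and C1qc in both comparisons and Aif1 in COL were called under every alternative run, and each of the others lost its call in at least 1 alternative. In SPF the count was 3 without SPF replicate 2, GF replicate 1 or GF replicate 3 and 2 without GF replicate 2. In COL it was 3 without COL replicate 2 and 4 without GF replicate 1 or 2. C1qb lost its call in SPF without any 1 of SPF replicates 2 and 3 and the 3 GF libraries (adjusted p up to 0.117). Cx3cr1 in SPF lost it without SPF replicate 1 or 2 or GF replicate 2 or 3, and when only the SPF and GF libraries of that age were fitted (up to 0.202), and Mpeg1 without GF replicate 1 or 2 (up to 0.167). In COL, Mpeg1 and C1qb lost it without COL replicate 2 or GF replicate 1 or 2, Adgre1 without COL replicate 2 or GF replicate 1, and Cx3cr1 without COL replicate 2 or 3 or GF replicate 2 or 3 (adjusted p up to 0.143 among these 4). Csf1r was called in COL without COL replicate 1 (1.08, adjusted p = 0.0193).

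**Figure D2:**
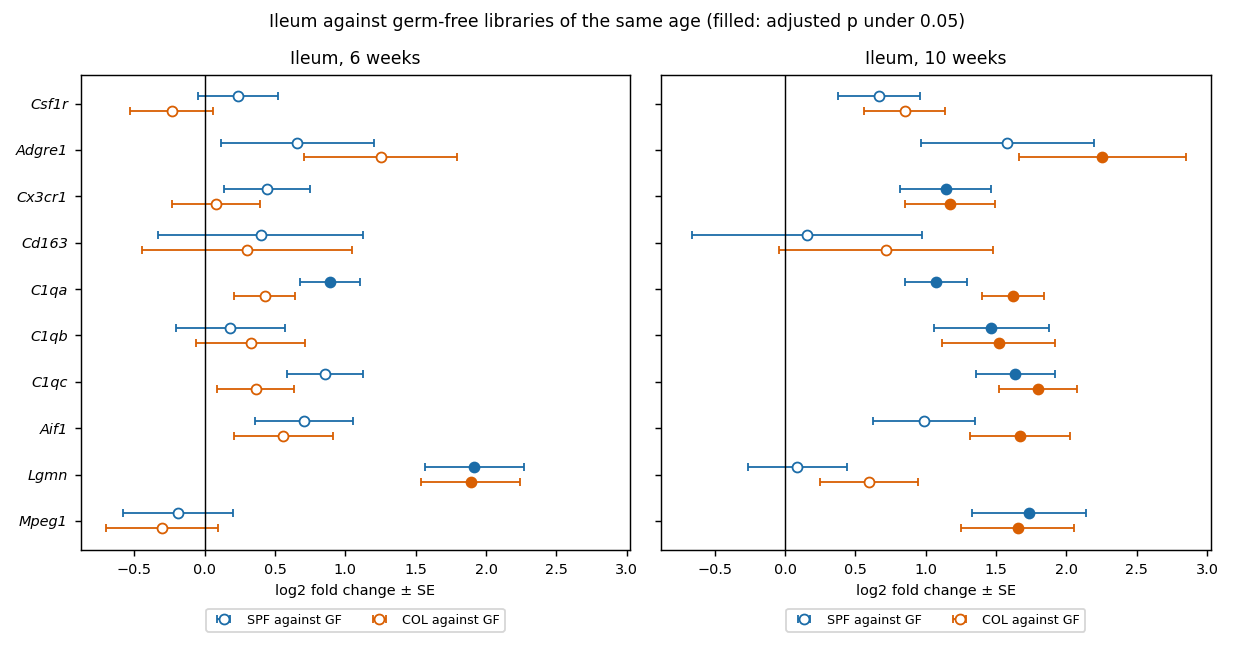
Log2 fold change ± standard error of each of the 10 genes in SPF (blue) and COL (orange) ileum against GF ileum of the same age, at 6 weeks on the left and 10 weeks on the right. Filled points have an adjusted p under 0.05: 2 and 1 genes at 6 weeks and 5 and 7 at 10 weeks, with Lgmn called at 6 weeks and not at 10.

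Markers of other immune cells moved with these groups. The summed level of 7 T cell genes was 2.1 to 5.8 CPM in GF, 62.3 to 133 CPM in SPF and 38.1 to 77.7 CPM in COL ileum at 10 weeks, with 5 of 7 called higher in each and none at 0 in a whole group. Plasma cell genes summed to 527 to 650 CPM in GF, 1672 to 1806 CPM in SPF and 2050 to 2211 CPM in COL ileum, with 4 of 6 called in each. B cell genes were uneven within groups: 601, 8.4 and 3.9 CPM in SPF, 104, 308 and 129 CPM in COL and 54.6, 0.6 and 2.7 CPM in GF ileum, with 0 of 6 called and Pax5 at 0 in GF. Without both replicates 1 of SPF and GF, which held most B cell reads of their groups, 3 of the 10 macrophage genes were called in SPF against GF. Dendritic cell genes, part of which macrophages and other cells share, summed to 70 to 86.2 CPM in GF, 130 to 189 CPM in SPF and 98.6 to 151 CPM in COL ileum, with 4 and 3 of 9 called higher. Smooth muscle genes, 0 of 8 called, were lowest in SPF replicate 3 at 221 CPM against 1404 to 3457 CPM in the other libraries of the 3 groups, and without this library 4 of the 10 genes were called in SPF. Recruited monocyte genes summed to 493 to 573 CPM in GF, 880 to 1141 CPM in SPF and 1089 to 1356 CPM in COL ileum, with 4 of 14 called higher and 1 lower in SPF and 6 higher and 0 lower in COL, and Chil3 at 0 in all 3 groups. That list includes Ly6c1, which endothelium also makes, so its sum does not measure monocytes alone. Adipose genes were also uneven, summing to 75.8, 1091 and 65.3 CPM in GF ileum. They summed to 459, 298 and 87.6 CPM in SPF and 237, 339 and 599 CPM in COL ileum. The part of the T, plasma, dendritic cell, monocyte and adipose markers in the result was not tested.

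**Figure D3:**
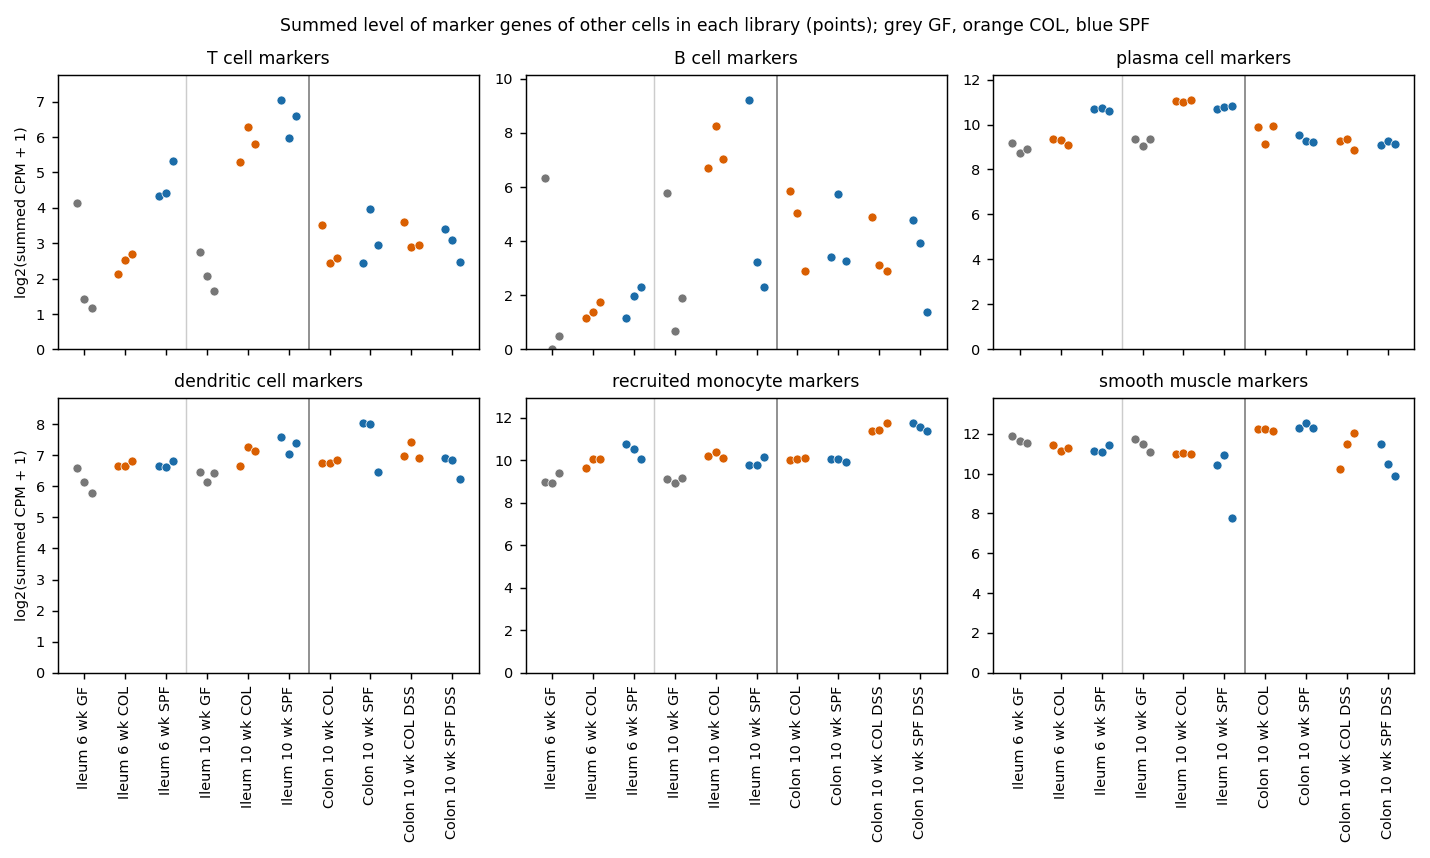
Summed level of marker genes of 6 other cell types in each library, as log2(summed CPM + 1), with the 10 groups along the horizontal axis and points for libraries. T cell and plasma cell markers are higher in COL and SPF than in GF ileum at 10 weeks, B cell markers are uneven within groups, and smooth muscle markers are lowest in SPF ileum at 10 weeks, replicate 3 (221 CPM).

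In ileum at 6 weeks, fewer of the 10 genes were called. Lgmn, which encodes legumain, a lysosomal protease that cuts after asparagine, was 3.78-fold higher in SPF and 3.71-fold higher in COL than in GF ileum, and C1qa was 1.85-fold higher in SPF. The other 8 genes passed in neither comparison. Both comparisons share the GF libraries. Lgmn was at 57.3, 55.6 and 69.1 CPM in GF, 286, 279 and 128 CPM in SPF and 125, 283 and 267 CPM in COL ileum. Each colonized group held 1 library well below its other 2, and that library was still above every GF library. Lgmn rose by 1.92 ± 0.35 in SPF (3.78-fold, adjusted p = 0.00283) and 1.89 ± 0.35 in COL (3.71-fold, adjusted p = 0.00492), and it was called under every alternative run.

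C1qa at 6 weeks was at 35.9, 35.7 and 24.5 CPM in GF, 51.8, 53.2 and 73.9 CPM in SPF and 30.2, 45.9 and 52.5 CPM in COL ileum. SPF stood apart from GF and COL did not, with differences of 0.89 ± 0.21 (adjusted p = 0.00917) and 0.43 ± 0.22 (adjusted p = 0.32). C1qc was at 30.4, 25.4 and 10.4 CPM in GF and 34.7, 34.8 and 49.4 CPM in SPF (0.85 ± 0.27, adjusted p = 0.053), apart but not called. It was called with no filter (adjusted p = 0.04) and with DESeq2 (adjusted p = 0.0406). C1qb was at 15.6, 7.9 and 3.43 CPM in GF and 11.9, 11.3 and 6.77 CPM in SPF. These groups overlapped (0.18 ± 0.39, adjusted p = 0.85). Mpeg1 was at 19.2, 8.82 and 5.48 CPM in GF, 7.55, 13.2 and 7.98 CPM in SPF and 10.9, 10.9 and 5.02 CPM in COL ileum, and the groups overlapped. Its estimates were -0.19 ± 0.39 and -0.31 ± 0.40, the lowest of the 10 genes in both comparisons. Adgre1 was above GF in every library of both groups (0.66 ± 0.55 in SPF and 1.25 ± 0.55 in COL, adjusted p of 0.55 and 0.23), from 9 to 24 reads per library.

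At 6 weeks, 2 of the 10 genes were called higher in SPF than in GF, where 4.37% of all genes were called higher, and 1 in COL, where 2.78% were. None was called lower, where 3.33% and 1.86% of all genes were. Groups stood apart upward for 6 genes in SPF, against 15.9% of all genes, and for 3 in COL, against 11.6%. The median difference of the 10 genes was 0.55 and 0.34. Without GF replicate 3 or SPF replicate 3 the count in SPF was 1, since C1qa lost its call (adjusted p up to 0.074), and without GF replicate 1 it was 3, since C1qc was called (1.12, adjusted p = 0.0209). Plasma cell genes were higher in SPF (1535 to 1681 CPM, 5 of 6 called) than in GF (422 to 576 CPM) and COL ileum at 6 weeks (546 to 660 CPM, 0 called), and T cell genes had 2 of 7 called in SPF and 0 in COL (19.2 to 38.8 CPM, against 1.2 to 16.7 CPM in GF and 3.4 to 5.5 CPM in COL). Recruited monocyte genes summed to 483 to 684 CPM in GF, 1076 to 1716 CPM in SPF and 782 to 1058 CPM in COL ileum, with 4 and 1 of 14 called higher. Within GF, B cell genes summed to 80.4, 0 and 0.411 CPM and adipose genes to 61.2, 1006 and 776 CPM, so replicate 1 stood apart in both, and adipose genes were at 46.7 to 121 CPM in SPF and COL, with 0 of 5 called. The part of these cells in the result was not tested.

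The ages were compared within each status. Lgmn fell from 6 to 10 weeks in SPF ileum, from 231 ± 89.1 to 68.2 ± 14.5 CPM (-1.72 ± 0.35, adjusted p = 0.034), and the groups did not overlap. It was the single gene of the 10 called lower in SPF, where 0.793% of all genes were, and 0 were called higher, where 0.574% were. Its call was lost without any 1 of SPF replicates 1 and 3 at 10 weeks and 1 and 2 at 6 weeks (adjusted p up to 0.161). In COL, C1qc rose from 28.1 ± 4.35 to 57.2 ± 6.11 CPM (1.03 ± 0.27, adjusted p = 0.0382), the single gene called higher where 1.62% of all genes were, and 0 were called lower, where 0.914% were. That call was lost without any 1 of the 6 libraries (adjusted p up to 0.176). C1qa in COL had 0.76 ± 0.21 (adjusted p = 0.053), and Lgmn -1.19 ± 0.35 (adjusted p = 0.082). Lgmn in COL was called without COL replicate 1 at 6 weeks (-1.48, adjusted p = 0.0222), and Csf1r without COL replicate 1 at 10 weeks (1.18, adjusted p = 0.0333). Over the same ages in COL, plasma cell genes went from 546 to 660 CPM to 2050 to 2211 CPM (4 of 6 called higher), T cell genes from 3.4 to 5.5 CPM to 38.1 to 77.7 CPM (4 of 7) and B cell genes from 1.26 to 2.35 CPM to 104 to 308 CPM (0 of 6). In SPF, 0 genes of these 3 lists were called between the ages. The part of these cells was not tested.

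In GF ileum, edgeR called 0 of the 10 genes between the ages, where 0.0302% of all genes were called. At an unadjusted p under 0.05 it found 2 of the 10, against 503 of the 13233 genes tested. DESeq2 called 0 of the 10. The estimates were below 0 for 9 of the 10 genes, from -1.07 ± 0.62 for Adgre1 upward, and the exception was Lgmn at 0.11 ± 0.35. The GF libraries at 10 weeks enter both this comparison and those with SPF and COL at that age.

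Whether the difference from GF changed with age was tested as an interaction. edgeR called 0 of the 10 genes for SPF, where 0.0151% of all genes were called, and 0 for COL, where 0.144% were. At an unadjusted p under 0.05 it found 3 and 8 of the 10, against 1132 and 1373 of the 13233 genes tested. DESeq2 called 1 of the 10 in each. For SPF the change at 10 against 6 weeks was -1.83 ± 0.49 for Lgmn (adjusted p = 0.36, and 0.0214 with DESeq2) and 1.92 ± 0.56 for Mpeg1 (adjusted p = 0.36). For COL the change was 1.20 ± 0.31 for C1qa (adjusted p = 0.11, and 0.0391 with DESeq2), 1.43 ± 0.39 for C1qc (adjusted p = 0.15), 1.96 ± 0.57 for Mpeg1 (adjusted p = 0.17) and -1.30 ± 0.49 for Lgmn (adjusted p = 0.36). Without GF replicate 3 at 6 weeks, C1qc was called for COL (1.76, adjusted p = 0.0115).

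Colonized ileum was also set against SPF ileum of the same age. edgeR called 0 of the 10 genes at 6 weeks, where 0.0982% of all genes were called, and 0 at 10 weeks, where 0.0907% were. With no adjustment, p was under 0.05 for 1 of the 10 at each age, C1qa both times. It was so for 1048 and 1055 of the 13233 genes tested. DESeq2 called 0 of the 10 at each age. C1qa was 42.9 ± 11.5 CPM in COL and 59.6 ± 12.4 CPM in SPF ileum at 6 weeks (-0.46 ± 0.21, adjusted p = 0.61). At 10 weeks it was 72.5 ± 5.82 and 48.7 ± 9.92 CPM, with every COL library above every SPF library (0.55 ± 0.21, adjusted p = 0.49). The change of this difference with age, a comparison added after seeing the data, was 1.01 ± 0.30 for C1qa (adjusted p = 0.21). edgeR called 0 of the 10 there, where 0.166% of all genes were called, and DESeq2 called 0. At an unadjusted p under 0.05, edgeR found 1 of the 10 and 1343 of the 13233 genes tested. The estimates of the 10 genes ran from -0.49 (C1qc) to 0.59 (Adgre1) at 6 weeks and from -0.08 (Mpeg1) to 0.68 (Aif1) at 10 weeks, with standard errors of 0.21 to 0.78 at 10 weeks.

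DSS in the colon was tested within SPF and within COL mice. In SPF colon, Aif1 and Mpeg1 were 2.4-fold and 2.49-fold higher after DSS, and the other 8 genes passed in neither direction. Aif1 was at 10.5, 5.86 and 7.56 CPM without DSS and 11.8, 16.1 and 29.5 CPM after it. All DSS libraries were above all untreated ones, although the lowest exceeded the highest by little (1.26 ± 0.40, adjusted p = 0.0287). Mpeg1 was at 6.23, 16.7 and 7.2 CPM without and 16.5, 19.9 and 39 CPM with DSS. Here untreated replicate 2 overlapped the treated libraries (1.32 ± 0.40, adjusted p = 0.0254). Of the 10 genes, 2 were called higher, where 12.2% of all genes were, and 0 lower, where 11.9% were.

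In COL colon, edgeR called 0 of the 10 genes after DSS, where 7.14% of all genes were called. At an unadjusted p under 0.05 it found 2 of the 10, against 2953 of the 12855 genes tested. DESeq2 called 1 of the 10. Aif1 was at 9.95, 6.71 and 4.41 CPM without and 19.6, 11.7 and 18 CPM with DSS, again with no overlap (1.24 ± 0.39, adjusted p = 0.066, and 0.036 with DESeq2). Mpeg1 was at 10.1, 6.89 and 11.7 CPM without and 16.5, 13.9 and 10.6 CPM with DSS (0.53 ± 0.40, adjusted p = 0.46). C1qc was at 28.5, 36 and 31.6 CPM without and 42.6, 49.8 and 82.3 CPM with DSS (0.87 ± 0.40, adjusted p = 0.2), and Cd163 had -1.09 ± 0.61 (adjusted p = 0.31), with DSS libraries lower throughout. The difference of the DSS effect between COL and SPF was called for 0 genes of the 10 and 0% of all genes. With no adjustment, p was under 0.05 for 1 of the 10, C1qc (1.24 ± 0.56, adjusted p = 0.57), and for 1122 of the 12855 genes tested. DESeq2 called 0 of the 10.

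Csf1r, Adgre1 and Cd163 had estimates below 0 after DSS in both statuses, none of which passed. They were -0.45 ± 0.39, -0.38 ± 0.46 and -0.45 ± 0.62 in SPF and -0.59 ± 0.39, -0.30 ± 0.46 and -1.09 ± 0.61 in COL. Cx3cr1 in SPF colon was at 16.7, 12.6 and 11 CPM without and 10.4, 10.1 and 10.2 CPM with DSS, lower in every DSS library, and was not called (-0.39 ± 0.32, adjusted p = 0.39). Median differences of the 10 genes were -0.11 in SPF and 0.09 in COL. Without SPF DSS replicate 3, the library highest for Aif1 and Mpeg1, 0 of the 10 genes were called in SPF. Aif1 lost its call also without untreated SPF replicate 2 or 3 and Mpeg1 without replicate 1 or 3, leaving 1 gene each for replicates 1 and 2 (adjusted p up to 0.173). Without untreated replicate 3, C1qa was called in their place (0.95, adjusted p = 0.0415), and without DSS replicate 1, Lgmn was called as well (1.09, adjusted p = 0.0126). When the 6 SPF colon libraries were fitted alone, 0 of the 10 were called.

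Markers of other cells moved with DSS, where 12.2% of all genes were called higher and 11.9% lower in SPF, and 7.14% were called in COL. Of 15 tested genes of recruited monocytes, 8 rose and 1 fell in SPF colon and 6 rose in COL colon, among them Ly6c1, which endothelium also makes (3.86 ± 0.34 in SPF, adjusted p = 6.5e-06), and Ccr2, the receptor by which monocytes leave the marrow, named for that role after its values were seen (1.75 ± 0.44, adjusted p = 0.01). The list summed to 977 to 1102 CPM in the 6 untreated and 2673 to 3461 CPM in the 6 DSS libraries. Neutrophil genes had 4 of 5 called higher in SPF and 1 of 5 in COL. The sum over all 10 genes of that list was highest in SPF DSS replicate 3 at 4108 CPM. It was already 536 to 566 CPM in untreated COL colon, where S100a9, Retnlg, Csf3r and Mmp8 were at 0. The sum therefore does not measure neutrophils alone. Smooth muscle genes fell in 6 of 8 cases in SPF, from 4988 to 5978 CPM without to 944 to 2833 CPM with DSS, and 944 CPM was again replicate 3. In COL, 0 of 8 were called, with 4516 to 4880 CPM without and 1222 to 4207 CPM with DSS. The part of these cells in the values of Aif1 and Mpeg1 was not tested.

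**Figure D4:**
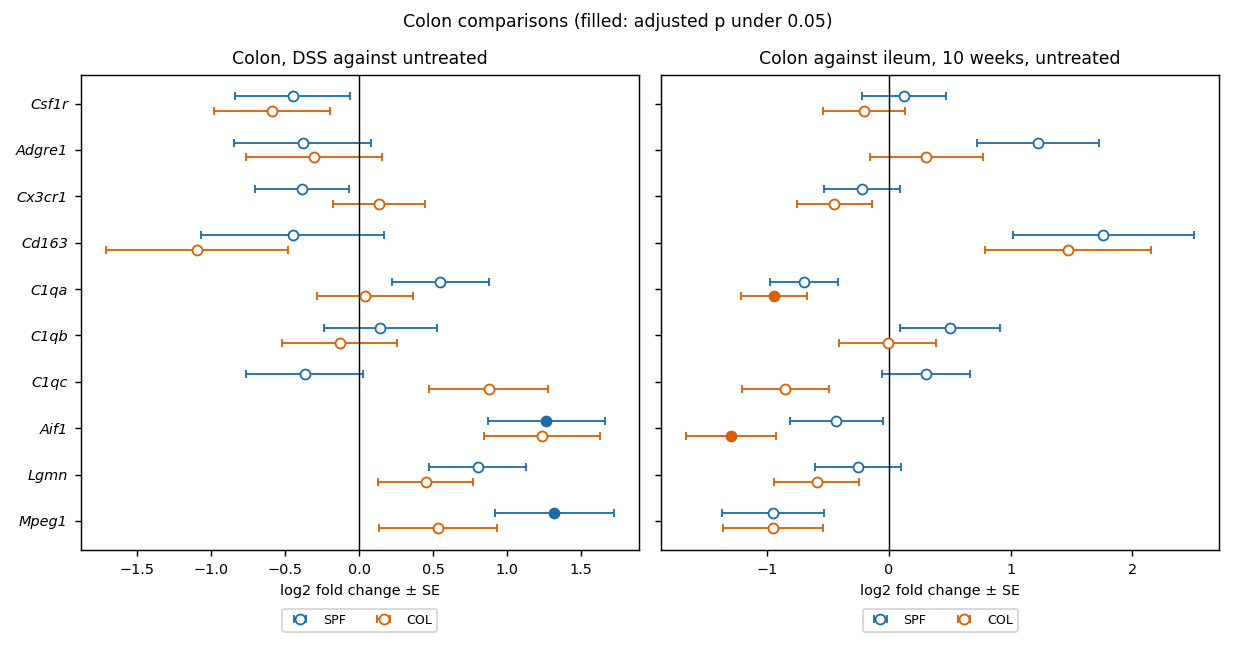
Log2 fold change ± standard error of each of the 10 genes for DSS against untreated colon (left) and for untreated colon against ileum at 10 weeks (right), in SPF (blue) and COL (orange). Filled points have an adjusted p under 0.05: Aif1 and Mpeg1 after DSS in SPF, and Aif1 and C1qa lower in colon than in ileum in COL.

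Between COL and SPF colon, edgeR called 0 of the 10 genes without DSS, where 0% of all genes were called, and 0 after DSS, where 0.00778% were. DESeq2 called 0 of the 10 in each. At an unadjusted p under 0.05, edgeR found 988 and 1030 of the 12855 genes tested, with 1 of the 10 in each. Without DSS that gene was C1qc, at 28.5, 36 and 31.6 CPM in COL and 106, 64 and 23.8 CPM in SPF colon. The SPF libraries spanned the COL libraries on both sides (-1.02 ± 0.40, adjusted p = 0.61), and without SPF replicate 3 it was called (-1.42, adjusted p = 0.0382). After DSS it was Mpeg1, with all COL libraries below all SPF libraries (-0.88 ± 0.39, adjusted p = 0.6).

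Untreated colon was compared with ileum at 10 weeks in a fit over all 30 libraries. In COL, C1qa was at 55, 27 and 32 CPM in colon and 68.8, 79.2 and 69.5 CPM in ileum, and Aif1 at 9.95, 6.71 and 4.41 CPM in colon and 15.8, 22.8 and 12.8 CPM in ileum. Both were lower in every colon library, C1qa by -0.94 ± 0.27 (adjusted p = 0.00905) and Aif1 by -1.29 ± 0.37 (adjusted p = 0.00863). These were the 2 genes of 10 called lower, where 14.3% of all genes were, and 0 were called higher, where 11.9% were. In SPF, edgeR called 0 of the 10, where 32.5% of all genes were called. With no adjustment, p was under 0.05 for 4 of the 10, against 5768 of the 13807 genes tested. DESeq2 called 0 of the 10. Cd163 had the highest estimates, 1.76 ± 0.74 in SPF (adjusted p = 0.069) and 1.47 ± 0.68 in COL (adjusted p = 0.11), from 2 to 43 reads per library. Adgre1 was next in SPF at 1.23 ± 0.50 (adjusted p = 0.059). The difference between COL and SPF, added after seeing the data, was called for 0 of the 10 and 0% of all genes. DESeq2 called 0 of the 10. At an unadjusted p under 0.05, edgeR found 1 of the 10 and 914 of the 13807 genes tested.

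Single libraries moved the tissue calls. In COL the count was 1 without colon replicate 2 (C1qa lost, adjusted p = 0.079), colon replicate 3 or ileum replicate 2 (Aif1 lost, adjusted p up to 0.0711). In SPF it was 2 without colon replicate 2 (Cd163 and Mpeg1), colon replicate 3 (Adgre1 and C1qa), ileum replicate 2 (Adgre1 and Cd163) or ileum replicate 3 (C1qa and Mpeg1). Smooth muscle genes were higher in colon for 8 of 8 genes in SPF and 3 of 8 in COL, and T cell genes lower for 5 and 6 of 7. Of all genes, 15.3% in SPF and 11.9% in COL were called higher in colon, and 17.2% and 14.3% lower. The part of the smooth muscle and T cell genes was not tested.

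The surroundings of the 10 genes were read from lists of related genes. Of 16 tested genes for ligands, lineage factors and adaptors, 5 were called higher in SPF and 7 in COL than in GF ileum at 10 weeks, and 0 lower, beside the 4.22% and 5.1% of all genes given above. Irf8, a transcription factor of monocytes, dendritic cells and B cells, had 1.80 ± 0.18 in SPF (adjusted p = 2.2e-07) and 1.47 ± 0.18 in COL (adjusted p = 3e-06). Tyrobp, a signalling adaptor of myeloid and natural killer cells, had 1.53 ± 0.28 (adjusted p = 9e-04) and 1.33 ± 0.28 (adjusted p = 0.0023). The ligands of Csf1r and Cx3cr1, named for their role after their values were seen, were called for Il34 alone. Il34 rose by 1.12 ± 0.31 in SPF (adjusted p = 0.026) and 1.22 ± 0.30 in COL (adjusted p = 0.0097), from 6.31 ± 2.82 CPM in GF to 13.6 ± 2.34 and 14.6 ± 2.20 CPM. Csf1 had 0.38 ± 0.33 and 0.26 ± 0.32 (adjusted p = 0.59 and 0.72), and Cx3cl1 0.28 ± 0.20 and 0.04 ± 0.20 (adjusted p = 0.497 and 0.942). At 6 weeks, 3 of the 16 were called higher in SPF, Irf8 and Il34 among them, and 2 in COL, Irf8 among them.

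Of 15 tested complement genes, 1 was called higher and 1 lower in SPF, and 5 higher and 1 lower in COL ileum at 10 weeks, against 4.22% and 5.1% of all genes called higher and 1.98% and 4.04% lower. C2, which C1s cleaves, was at 40.3 CPM in GF and 99.5 CPM in SPF (1.32 ± 0.31, adjusted p = 0.014) and 133 CPM in COL (1.73 ± 0.31, adjusted p = 0.0012). C4b, another protein that C1s cleaves, rose in COL by 1.76 ± 0.40 (adjusted p = 0.0044). C1ra, a protease that binds C1q, rose there by 1.47 ± 0.35 (adjusted p = 0.008). Of 20 other gut macrophage genes, 4 were called higher in SPF and 7 in COL, and 0 lower. Il10ra, a chain of the interleukin-10 receptor that T cells also carry, had 3.03 ± 0.60 in SPF (adjusted p = 0.0019) and 2.56 ± 0.59 in COL (adjusted p = 0.0057). The chemokine gene Ccl8 had 2.26 ± 0.60 (adjusted p = 0.028) and 3.80 ± 0.58 (adjusted p = 2e-04).

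Phagocytosis and lysosome genes, the class to which Lgmn belongs by function, had 2 of 25 called higher in each 10-week comparison, against 4.22% and 5.1% of all genes, Ctsc and Ctsz in SPF and Ctsc and Apoe in COL. At 6 weeks, when Lgmn was high, they had 2 called higher and 1 lower in SPF and 1 higher in COL, against 4.37% and 2.78% of all genes called higher. These shares are near the background. Ctsc, a lysosomal protease, was among them in all 4 comparisons, with differences of 0.62 to 0.78. Genes of haemoglobin and iron handling, the pathway of Cd163, had 1 of 8 called higher at 6 weeks in SPF and COL and at 10 weeks in COL, each time Slc40a1, the iron exporter ferroportin, which enterocytes also make (3.88 ± 0.58, 3.55 ± 0.58 and 2.90 ± 0.59). Of all genes, 4.37%, 2.78% and 5.1% were called higher in these comparisons. In DSS-treated SPF colon, the other gut macrophage genes split into 4 higher and 6 lower of 20, against 12.2% and 11.9% of all genes. Ccl8 (2.36 ± 0.31, adjusted p = 1.8e-04) and Itgax, the CD11c integrin chain (1.97 ± 0.34, adjusted p = 9.7e-04), rose. Folr2, a folate receptor of tissue macrophages, fell by 2.21 ± 0.41 (adjusted p = 0.0017).

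The 10 genes were correlated across the 18 ileum libraries and less so across the 12 colon libraries. Over the 45 pairs, the Pearson correlation of log2 CPM had a median of 0.48 in ileum, with 41 pairs above 0, and 0.08 in colon, with 25 above 0. In ileum the C1q genes were correlated at 0.67 to 0.81 with each other, and C1qa with Aif1 at 0.86. In colon the C1q genes ran from -0.42 to 0.53, and the highest pair was Lgmn with Mpeg1 at 0.78. In ileum, Cd163 had the lowest median with the other 9 genes at 0.175, followed by Lgmn at 0.314 and Csf1r at 0.373, and C1qc the highest at 0.662. These are descriptions across libraries that share depth, tissue makeup and group differences.

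**Figure D5:**
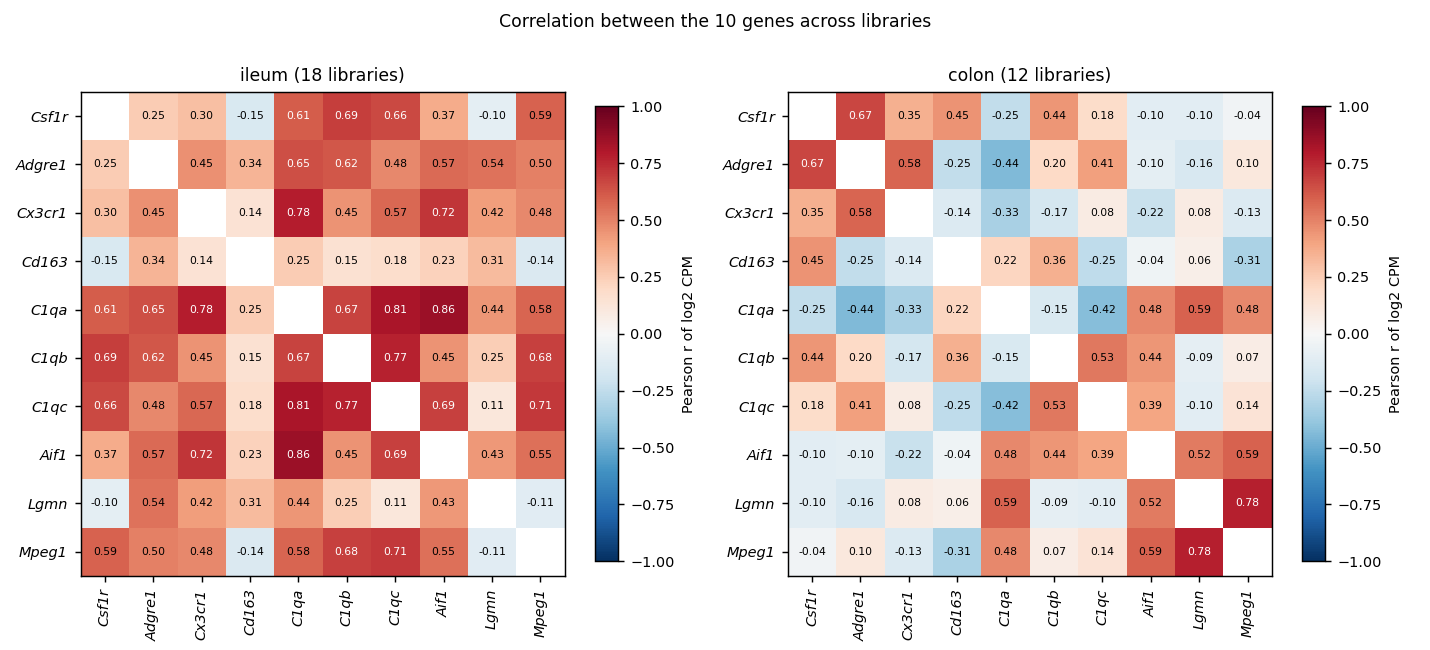
Pearson correlation of log2 CPM between each pair of the 10 genes across the 18 ileum libraries (left) and the 12 colon libraries (right), in colour from -1 to 1 with the value in each cell. The C1q genes form a block of high values in ileum (0.67 to 0.81) and run from -0.42 to 0.53 in colon, and the rows of Cd163 and Lgmn are the palest in ileum by their medians (0.175 and 0.314).

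Among 10019 candidate genes, the 6 whose pattern was most like the mean of the 10 genes in both tissues included C1s1, Fcgr3, Hcls1, Srgn and Spon1, with correlations of at least 0.70 in each tissue. C1s1, a protease that binds C1q, had 0.89 in colon and 0.79 in ileum, and Fcgr3, a receptor for immunoglobulin G on myeloid and natural killer cells, 0.81 and 0.78. Without Lgmn and Mpeg1 in the mean, 2 of the 6 stayed among the first 6, C1s1 and Fcgr3. Lgmn alone, examined after its values were seen, was most like B4galt1 (0.95 over 18 ileum libraries), Tuba1c (0.92) and Tuba1b (0.92). B4galt1 encodes a Golgi galactosyltransferase and Tuba1c and Tuba1b encode alpha-tubulins, all made by many cell types. Which cells made the Lgmn RNA was not tested. B4galt1 averaged 236 CPM in GF, 528 CPM in COL and 702 CPM in SPF ileum at 6 weeks, and 230, 319 and 263 CPM at 10 weeks.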

How the data were processed

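Whole-tissue 3′ tag libraries were sequenced on an Ion Torrent instrument, per the labels' protocols. The submitters' processing notes name Trimmomatic 0.36, FastQC 0.11.5, STAR 2.5.3a, HTSeq and the mm10 build. The HTSeq version, strand setting and annotation are not given in the sources used here, so reads from overlapping antisense genes cannot be told apart. The authors deposited raw read counts per gene symbol, without normalization, and 5 summary lines per library that name no gene were left out of library sizes and tests. Assigned reads were 44.6% to 54.1% and reads aligned to several places 28% to 36.9% of each library.

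Counts were fitted with edgeR 4.0.16 and limma 3.58.1 in R 4.3.3 (TMM scaling, filterByExpr, robust quasi-likelihood test, Benjamini-Hochberg adjustment) in 3 fits: 12 colon libraries (12855 genes), 18 ileum libraries (13233 genes) and all 30 (13807 genes). Of 20 comparisons, 2 were added after seeing the data. DESeq2 1.42.0, no filter, other scaling, only the groups compared, a replicate block and leaving out each library were alternatives. Figures were drawn with matplotlib 3.10.9 under Python 3.11.15, and the fits were tested on simulated data. The 10 genes and the lists were chosen with earlier results of these data known. From each list, genes that were called were named, up to 4 per comparison by smallest p, and the 2 with the smallest p where none was; exceptions are stated where they are named. The 6 most similar genes were those with the highest of the lower correlation of both tissues. Some genes and motifs that these rules would name are not reported here.

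Replicate pairs differed by a chi-square of 5.29 to 48.3 per degree of freedom, so none was counted as 1 library. Same-numbered libraries, by the numbers in the titles, deviated together in all 3 pairs for SPF against GF ileum at 10 weeks (correlations of 0.245, 0.189 and 0.16). All 3 pairs were also positive between the ages in GF ileum (0.233, 0.24 and 0.0121) and COL ileum (0.043, 0.0568 and 0.0718). They were so in no other comparison.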

Additional observations from a re-analysis of the deposited data

How the results depend on the processing

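No called result for the 10 genes changed direction: of 236 alternative values for 21 called results, 186 kept their call and 50 lost it, and of 2253 for 179 uncalled results, 34 were called. The replicate block changed no call among the 10 genes, with 5 called in SPF against GF ileum at 10 weeks. The number called after DSS in COL colon was 1 with no filter, 1 with DESeq2 and 2 with only the groups compared, and in SPF colon 0 with only the groups compared. Between ages it was 2, 4 and 3 in COL under the same 3 settings, and 0 in SPF with only the groups compared. DESeq2 called 1 gene for the change with age of SPF against GF and 1 for COL against GF. Colon against ileum in COL gave 6 with only the groups compared. SPF against GF ileum at 10 weeks gave 3 without both libraries with most B cell reads, an alternative chosen after seeing the data. The cause of these changes was not tested. Leaving out 1 library at a time gave 0 to 3 for DSS in SPF, 0 to 1 for COL against SPF untreated colon, 1 to 3 for SPF against GF at 6 weeks and 2 to 4 at 10 weeks, and 3 to 8 for COL against GF at 10 weeks. It gave 0 to 1 for age in SPF, in COL and for the change with age of COL against GF, 0 to 2 for colon against ileum in SPF and 1 to 2 in COL. Adgre1 and Cd163, with as few as 1 and 2 reads in a library, are limited most by depth.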
